A study of Mus musculus with 8 samples.

Results

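Myelin is the sheath of stacked membrane that oligodendrocytes wrap around axons, and 9 genes of its making and of oligodendrocyte maturation are described here in single nuclei RNA sequencing data of the ventricular-subventricular zone (V-SVZ). The genes are *Mbp*, *Mobp*, *Mag*, *Mog*, *Cnp*, *Qdpr*, *Cryab*, *Bcas1* and *Mal*. They were taken by symbol from the 32285 gene rows of the count matrices, and each symbol matched 1 row. The rule used symbols and no measured value.

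Libraries came from 8 mice at postnatal day 90, 4 *Tsc2* wt/wt (labelled *Tsc2* wild) and 4 *Tsc2* mut/mut (labelled *Tsc2* mutant/mutant), with 1 library per mouse. The mouse lines of the study carry a CRE-dependent tdTomato reporter, a conditional *Tsc2* allele and a tamoxifen-inducible CRE driven by the *Nestin* promoter. The methods name both electroporation of a CRE plasmid and injection of 4-hydroxytamoxifen in pups, and do not say which these mice received, nor whether they carried the *Nestin*-driven CRE. Oligodendrocyte nuclei therefore enter as descendants of recombined cells or as nuclei that passed the sort. From each mouse 100000 tdTomato-positive nuclei were sorted for 3′ droplet libraries. Libraries held from 11182335 to 36773832 unique molecular identifiers (UMIs), of which 42.8% to 49.2% were mitochondrial. Levels are given as UMIs per 1000000 non-mitochondrial UMIs (CPM), summed over the barcodes of a population in a mouse. In mitochondria-rich barcodes the level of *Tsc2* itself was 23.3 ± 2.02 CPM for *Tsc2* wt/wt mice, against 20.5 ± 1.89 CPM for the *Tsc2* mut/mut mice (SD, n = 4) (log2 fold change −0.20, SE 0.16, adjusted p = 0.643, edgeR). Counts near the 3′ end do not show a deletion inside the gene, so this level does not check the labels.

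*Mbp* protein joins the inner faces of the myelin membrane, and its mRNA is known to be carried in granules along oligodendrocyte processes and translated at the sheath. *Mobp* mRNA is also known from processes. By contrast *Mag* and *Mog* are membrane proteins of the innermost and outermost myelin layers that are made at the endoplasmic reticulum. *Cnp* encodes a phosphodiesterase of uncompacted myelin, *Mal* a raft proteolipid that sorts myelin components, *Bcas1* a protein that marks oligodendrocytes beginning to myelinate, *Qdpr* the reductase that recycles tetrahydrobiopterin, and *Cryab* a small heat shock protein of lens, glia and other cells.

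Positions are those of GRCm38 (GENCODE M21). *Mag* is at chr7:30899176-30914873 on the minus strand and *Mog* at chr17:37010743-37023398 on the minus strand. *Mobp* is at chr9:120149707-120181484 on the plus strand and *Cryab* at chr9:50751325-50756636 on the plus strand. *Cnp* is at chr11:100574904-100591729 on the plus strand, *Qdpr* at chr5:45434021-45450236 on the minus strand, *Bcas1* at chr2:170346991-170427845 and *Mal* at chr2:127633226-127656695, both on the minus strand. *Mbp* spans 110492 bp, the longest of the 9, while *Cryab* is the shortest with 5312 bp. *Dnajc7* overlaps *Cnp*, *Hspb2* overlaps *Cryab*, and *Bcas1os1* and *Bcas1os2* overlap *Bcas1*, all on the opposite strand. *Mobp* shares its strand with the overlapping *Gm38642*, so reads in the shared part cannot be told apart.

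RefSeq promoter sequences were at hand for 6 of the 9 genes. They were searched for the SOX-type hexamers ACAAAG and ACAATG on both strands (CTTTGT and CATTGT on the other), since SOX10 is the factor best known for driving myelin genes. Within 250 bases before the start, 25.2% of 32851 promoters of all genes held at least 1 such hexamer, and of the 6 genes *Mobp*, *Mag* and *Cnp* did. That share counts windows, and the 6 genes had 8 windows. *Mag* had more than 1, of which the window at chr7:30914322-30914571 held 0. Its windows at chr7:30914864-30915113 and chr7:30914923-30915172 overlap and held 1 each. *Mobp* held 6, all CTTTGT, and its window was the only 1 of the 32851 with at least 6. The windows of *Mobp* (chr9:120149492-120149741, plus strand), *Mag* (chr7:30914864-30915113, minus strand) and *Mog* (chr17:37023399-37023648, minus strand) are printed 5′ to 3′ on the strand of the gene, with hexamers in capitals. They are shown because *Mobp* stood out in this count and because *Mag* and *Mog* had like levels and differences in most of what follows. A hexamer is a match of letters and not a binding site.
Mobp: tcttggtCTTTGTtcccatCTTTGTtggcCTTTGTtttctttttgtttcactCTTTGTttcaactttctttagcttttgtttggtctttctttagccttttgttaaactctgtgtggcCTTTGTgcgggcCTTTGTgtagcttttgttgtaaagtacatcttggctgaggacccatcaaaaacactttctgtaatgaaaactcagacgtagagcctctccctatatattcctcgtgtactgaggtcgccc
Mag: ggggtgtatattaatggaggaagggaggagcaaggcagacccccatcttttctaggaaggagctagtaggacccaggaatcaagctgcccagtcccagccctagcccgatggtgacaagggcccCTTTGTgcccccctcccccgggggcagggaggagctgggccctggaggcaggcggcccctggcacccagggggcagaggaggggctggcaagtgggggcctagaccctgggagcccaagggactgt
Mog: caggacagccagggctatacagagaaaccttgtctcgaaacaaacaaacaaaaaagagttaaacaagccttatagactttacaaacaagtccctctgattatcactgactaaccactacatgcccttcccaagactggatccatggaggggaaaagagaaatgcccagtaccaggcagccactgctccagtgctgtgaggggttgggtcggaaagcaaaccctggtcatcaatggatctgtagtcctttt

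Barcodes were divided into 4 populations in every mouse. Of 37881 barcodes with at least 300 genes, 658 held at least 1 UMI each of *St18* and *Prr5l*, both transcripts of mature oligodendrocyte nuclei, and were taken as gated oligodendrocyte nuclei. Other nucleus-like nuclei (2694) had under 20% mitochondrial UMIs and neither transcript. Mitochondria-rich barcodes (33390) had at least 30%, and barcodes with at least 100 and under 200 genes (188560), called low-gene barcodes here, formed the fourth. Mitochondrial UMIs made up 6.43% to 15.2% of the gated nuclei, 45.2% to 53.1% of the mitochondria-rich barcodes and 48.0% to 49.8% of the low-gene barcodes. The gate itself set no limit on mitochondrial UMIs. Of the 658 gated barcodes 566 were under 20% and 16 had at least 30%. In *Tsc2* mut/mut mouse 4 these were 6 and 3 of 12. Mice differed in the number of gated nuclei, with 12 to 212 each, and the lowest was *Tsc2* mut/mut mouse 4. Of 453550 barcode sequences 25585 were found in more than 1 library. Such a sequence was carried by 4090 of the 37881 barcodes with at least 300 genes, among them 67 of the 658 gated nuclei. There were 166 sequences that reached 300 genes in more than 1 library.

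The name of the gated nuclei was checked against 12 oligodendrocyte markers, 5 of which are among the 9 genes. All 12 were detected there, with a summed level of 9187 to 10637 CPM over *Tsc2* wt/wt mice, against 8723 to 12896 CPM over *Tsc2* mut/mut mice. In other nucleus-like nuclei the same 12 summed to 304 to 677 CPM over the 8 mice. The means were 10302 and 494 CPM, of which *Mbp* alone gave 3237 and 369 CPM. This check is therefore not independent of the comparison below. The same 12 summed to 3937 to 5636 CPM in mitochondria-rich barcodes and to 6520 to 10802.5 CPM in low-gene barcodes. The low-gene range overlapped that of the gated nuclei, so this sum alone does not set them apart. Astrocyte or NSC markers summed to 1223 to 7400 CPM in gated nuclei and to 4475 to 26479 CPM in other nucleus-like nuclei. Mitochondria-rich barcodes were of no single type. Their astrocyte or NSC markers summed to 18968 to 24834 CPM and their neuron markers to 6005 to 9305 CPM over the 8 mice.

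The first question was which of the 9 genes set the gated nuclei apart from other nuclei of the same mouse. In gated nuclei 8 of the 9 were higher than in other nucleus-like nuclei, against 20.1% of 6722 genes called higher (edgeR's quasi-likelihood test with the mouse as a block, adjusted p under 0.05). The median log2 fold change was 4.30 over the 9 genes and −0.09 over all genes. *Cryab* did not pass.

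*Mog* stood highest in this comparison. It had 740 to 1006 CPM in gated nuclei (median 819) and 0 to 2.95 CPM in other nucleus-like nuclei, where 11 UMIs were counted in all. No gated value came near those of the other nuclei (log2 fold change 9.23, SE 0.37, adjusted p = 2.62e-13, edgeR). *Mag* followed, with 790 to 1285 CPM (median 952) against 0 to 5.98 CPM, again without overlap (log2 fold change 8.23, SE 0.39, adjusted p = 6.56e-13, edgeR). In other nucleus-like nuclei *Mog* was at 0 in *Tsc2* wt/wt mouse 3, where 3 UMIs would be 5.78 CPM. *Mog* and *Mag* were both at 0 in *Tsc2* mut/mut mouse 4, where 3 UMIs would be 3.45 CPM. *Mal* was also higher, with 506 to 1294 CPM (median 579) against 4.60 to 21.6 CPM, and *Cnp* had 289 to 900 CPM (median 302) against 10.4 to 23.6 CPM. Their log2 fold changes were 6.03 (SE 0.28, adjusted p = 6.41e-13) and 4.53 (SE 0.23, adjusted p = 1.002e-12, edgeR). Within a mouse *Cnp* was 15.3-fold to 71.2-fold higher (median 23.3), and *Mal* 48.5-fold to 230-fold (median 62.7) in the 7 mice with over 3 UMIs in both populations. Both upper ends were of *Tsc2* mut/mut mouse 4, which had 12 gated nuclei.

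*Mbp* rose less. It had 2529 to 4555 CPM in gated nuclei (median 2885) and 214 to 513 CPM in other nucleus-like nuclei (log2 fold change 3.01, SE 0.33, adjusted p = 1.41e-07, edgeR). *Mobp* had 1065 to 1644 CPM against 34.5 to 107 CPM (log2 fold change 4.30, SE 0.33, adjusted p = 9.87e-10, edgeR), *Bcas1* 503 to 825 CPM against 29.9 to 73.4 CPM (3.58, SE 0.27, adjusted p = 5.14e-10, edgeR) and *Qdpr* 277 to 465 CPM against 38.7 to 77.0 CPM (2.53, SE 0.23, adjusted p = 1.64e-08, edgeR). In each of the 4 genes the lowest gated value was above the highest value of the other nuclei. 

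*Cryab* had 216 to 662 CPM in gated nuclei (median 331) and 59.7 to 641 CPM in other nucleus-like nuclei (median 256), and the populations overlapped (log2 fold change 0.61, SE 0.43, adjusted p = 0.251, edgeR). Other nucleus-like nuclei with at least 2 UMIs of choroid plexus genes (*Kl*, *Folr1*, *Clic6* and *Kcnj13* summed) held 549 to 1133 CPM of *Cryab*, and the remainder held 18.6 to 215 CPM. This split was chosen after the values were seen. Without the choroid plexus-gated nuclei the log2 fold change was 3.50 (adjusted p = 1.12e-07, edgeR) and all 9 genes were higher. Choroid plexus-gated nuclei made up 88.0% of the other nucleus-like nuclei in *Tsc2* mut/mut mouse 4 and 1.29% to 19.8% in the other 7 mice. Without that mouse *Cryab* passed (0.93, adjusted p = 0.0274, edgeR), and it also passed without the 5% of barcodes with the most UMIs (2.31, adjusted p = 4.93e-10, edgeR).

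**Figure D1:**
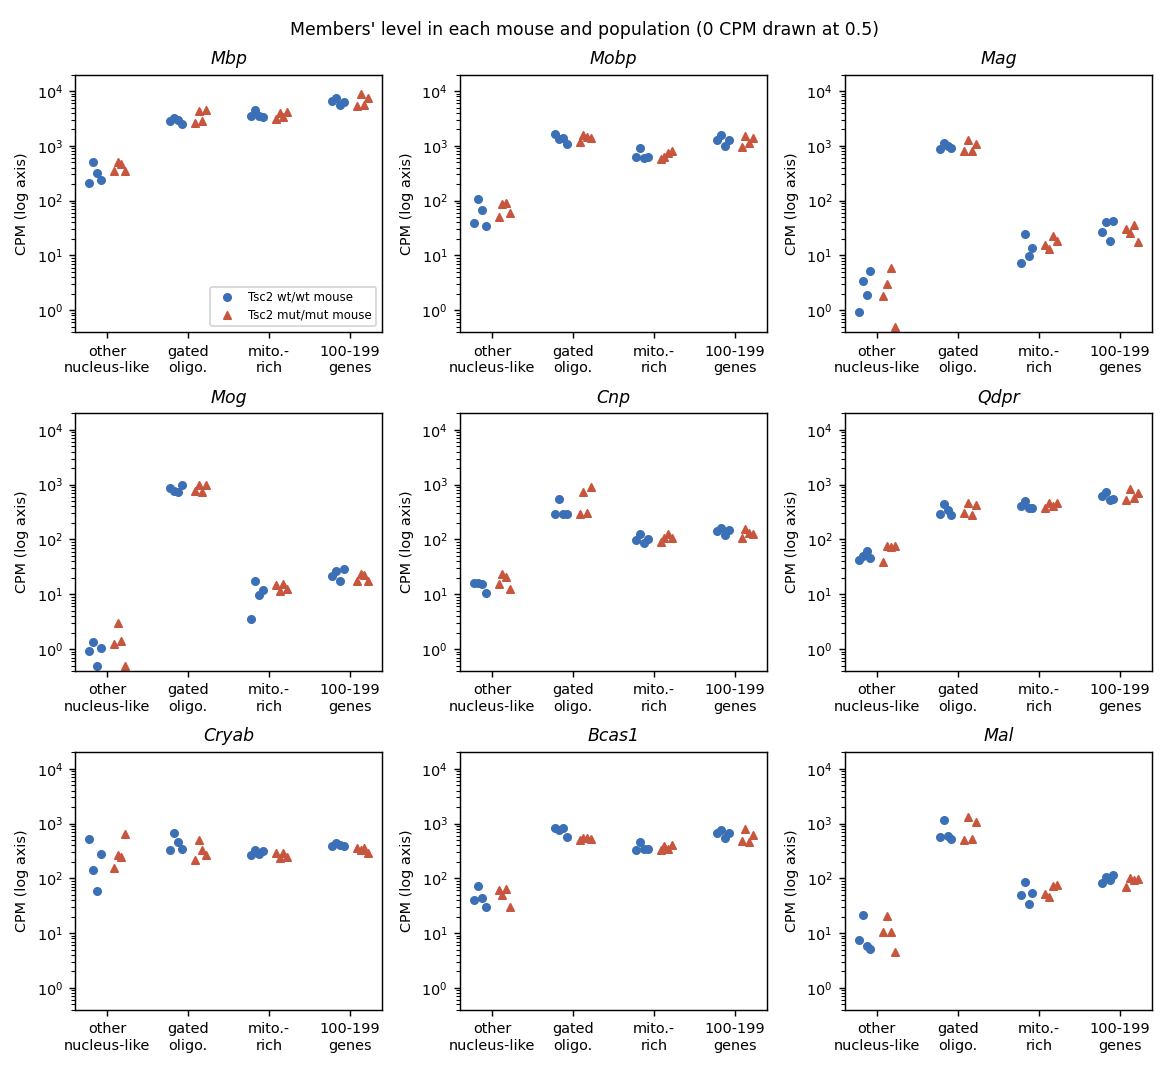
Level of each gene (CPM, log axis) in the 4 populations, with 1 point per mouse (circles Tsc2 wt/wt, triangles Tsc2 mut/mut; 0 is drawn at 0.5). Mag, Mog and Mal stood high in gated nuclei and low elsewhere, whereas Mbp, Qdpr and Bcas1 were low only in other nucleus-like nuclei among the 4 populations; low-gene barcodes are the last on each axis.

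Related genes were counted beside the 9. Of the other myelin sheath and paranode genes 16 of 17 tested were higher in gated nuclei and none lower (median log2 fold change 5.25). The highest were *Hapln2*, a link protein of the node (8.43), the adhesion protein *Cntn2* (7.59) and *Opalin*, a membrane protein of oligodendrocytes (7.32). Of the genes of myelin lipid and small-molecule metabolism 12 of 14 were higher and 1 lower, led by *Fa2h* (7.99) and *Ugt8a* (7.43), enzymes of galactolipid synthesis, and the lipocalin *Apod* (6.05). Among lineage transcription factors 6 of 7 tested were higher and 1, *Tcf7l2* (−1.56), was lower. *Myrf*, the factor required for myelin gene transcription, led them (7.16), followed by *Zfp536* (5.35) and *Nkx6-2* (4.48). All 14 long nuclear oligodendrocyte genes were higher, with *Slc24a2* (7.42), *Edil3* (7.17) and *Pex5l* (7.06) at the head. Of 8 progenitor and committed precursor genes tested, 5 were lower, among them *Ptprz1* (−3.16) and *Sox6* (−3.04), and 2 were higher. The higher ones were *Enpp6* (7.34), known from newly formed oligodendrocytes, and *Pcdh15* (1.36).

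In mitochondria-rich barcodes the lists divided as follows against gated nuclei. The long nuclear genes were all higher in gated nuclei (14 of 14), as were 15 of 18 sheath and paranode genes, 11 of 14 metabolic genes and 7 of 8 transcription factors, while 2, 2 and 1 were lower. Of 7 progenitor and committed precursor genes 4 were higher and 2 lower. Over all genes tested 36.6% were higher and 49.2% lower. Between low-gene barcodes and mitochondria-rich barcodes 8 of 16 sheath genes and 8 of 14 metabolic genes were higher in the former, and 2 of each were lower. Of the long nuclear genes 11 of 14 were higher, of the transcription factors 4 of 10 and of the progenitor and precursor genes 4 of 11, with 1 lower in the last list. Over all genes tested 8.17% were higher and 6.75% lower.

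The next question was whether the 9 genes were as high in gated nuclei as in mitochondria-rich barcodes, which carry RNA from outside nuclei. Here the genes divided. *Mag*, *Mog*, *Mal* and *Cnp* were higher in gated nuclei, *Mbp* and *Qdpr* were not, and *Mobp*, *Bcas1* and *Cryab* lay between. By edgeR 5 of the 9 were higher and 2 lower, against 36.6% and 49.2% of 7542 genes. So many genes differed that the scaling sets part of the answer. The median of all genes was −0.49 on the log2 scale with TMM factors, −0.09 with library sizes alone and −1.65 with the size factors of DESeq2, which called 3 of the 9 higher. Library sizes alone gave 7. Of the calls over all genes 42.6% were higher with TMM factors and 25.3% with DESeq2. With a mouse left out *Mobp* ran from −0.03 to 0.64, against 0.58 (SE 0.19) in the main fit. The median of all genes moved with these omissions as well. It was −0.95 without *Tsc2* wt/wt mouse 1, −0.97 without *Tsc2* wt/wt mouse 4, −1.02 without *Tsc2* mut/mut mouse 3 and −0.90 without *Tsc2* mut/mut mouse 4. Without any other mouse it stayed between −0.51 and −0.47. The SEs and adjusted p-values of this comparison thus understate how far a fold change moves with the mice and the scaling.

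*Mag* had 790 to 1285 CPM in gated nuclei and 7.15 to 24.5 CPM in mitochondria-rich barcodes (median 14.6), a fold of 34.6 to 124 within a mouse (log2 fold change 5.48, SE 0.21, adjusted p = 9.51e-120, edgeR). *Mog* had 3.57 to 17.7 CPM in mitochondria-rich barcodes, 42.8-fold to 240-fold under the gated nuclei of the same mouse (5.63, SE 0.21, adjusted p = 2.43e-126, edgeR). *Mal* had 34.2 to 85.6 CPM there (median 52.9; log2 fold change 3.20, SE 0.19, adjusted p = 2.23e-59, edgeR). These 3 genes were called higher under all 18 alternatives run. *Cnp* had 86.9 to 128 CPM (1.49, SE 0.17, adjusted p = 2.30e-17, edgeR) and was called in 17 of 18, with DESeq2 giving 0.40 (adjusted p = 0.0611).

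*Mbp* had 3140 to 4441 CPM in mitochondria-rich barcodes (median 3518) against 2529 to 4555 CPM in gated nuclei (median 2885). In 6 of 8 mice the gated nuclei were the lower, and the fold within a mouse ran from 0.725 to 1.12 (log2 fold change −0.68, SE 0.20, adjusted p = 0.00124, edgeR). Relative to the median of all genes the difference was −0.18, and over the alternatives that kept all mice it ran from −0.61 to 0.25. *Qdpr* had 368 to 497 CPM in mitochondria-rich barcodes and was lower in the gated nuclei of 7 of 8 mice (−0.72, SE 0.19, adjusted p = 1.53e-04, edgeR). Neither call held with library sizes alone (*Mbp* −0.22, adjusted p = 0.370; *Qdpr* −0.28, adjusted p = 0.144, edgeR) or with at least 500 genes per barcode (*Mbp* −0.11, adjusted p = 0.607; *Qdpr* −0.26, adjusted p = 0.162, edgeR). Levels of these 2 genes in the gated nuclei were thus close to or under those of the mitochondria-rich barcodes, depending on the scale.

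*Mobp* had 565 to 903 CPM in mitochondria-rich barcodes and was higher in gated nuclei in 8 of 8 mice on the CPM scale, by 1.47-fold to 2.67-fold (log2 fold change 0.58, SE 0.19, adjusted p = 0.00306, edgeR). *Mobp* was called higher in 8 of 18 alternatives. DESeq2 called it lower (−0.53, adjusted p = 4.52e-04), and it was lost without *Tsc2* wt/wt mouse 1 (−0.03, adjusted p = 0.887), *Tsc2* wt/wt mouse 4 (0.09, adjusted p = 0.687), *Tsc2* mut/mut mouse 3 (0.07, adjusted p = 0.745) or *Tsc2* mut/mut mouse 4 (0.04, adjusted p = 0.848, edgeR). *Bcas1* had 335 to 466 CPM and was 1.30-fold to 2.45-fold higher in the gated nuclei of 8 of 8 mice (0.33, SE 0.18, adjusted p = 0.0761, edgeR). Of 18 alternatives 2 called *Bcas1* higher and 1 called it lower, with log2 fold changes from −0.78 to 0.92. *Cryab* had 232 to 332 CPM and was higher in 7 of 8 (−0.02, SE 0.18, adjusted p = 0.914, edgeR). Its call moved with the scaling and the mice, since 9 of 18 alternatives called *Cryab* lower, with DESeq2 at −1.14 (adjusted p = 1.07e-07), and library sizes alone called it higher (0.41, adjusted p = 0.0369, edgeR). Leaving out *Tsc2* wt/wt mouse 1 (−0.55, adjusted p = 0.00390), *Tsc2* wt/wt mouse 4 (−0.49, adjusted p = 0.0145), *Tsc2* mut/mut mouse 3 (−0.49, adjusted p = 0.0158) or *Tsc2* mut/mut mouse 4 (−0.59, adjusted p = 0.00300, edgeR) was among those 9. The omissions listed for *Mobp* and *Cryab* were the same, and in them the median of all genes fell to between −1.02 and −0.90. Relative to the median of all genes *Mobp* was at 1.07, *Bcas1* at 0.83 and *Cryab* at 0.47, and no alternative with all mice put any of the 3 under that median.

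The same division appears in the share of the UMIs of the 9 genes. *Mbp* gave 35.5% ± 2.74 of them in gated nuclei (SD, n = 8) and 65.5% in mitochondria-rich barcodes, a difference of 30.03 percentage points (SD 3.03) that was seen in 8 of 8 mice (exact two-sided sign-flip permutation test, p = 0.00781, the smallest that 8 mice can give). *Mag* gave 10.9% in gated nuclei and 0.27% in mitochondria-rich barcodes, and *Mog* 9.66% and 0.21%. Shares count UMIs at the 3′ end and were not divided by length.

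**Figure D2:**
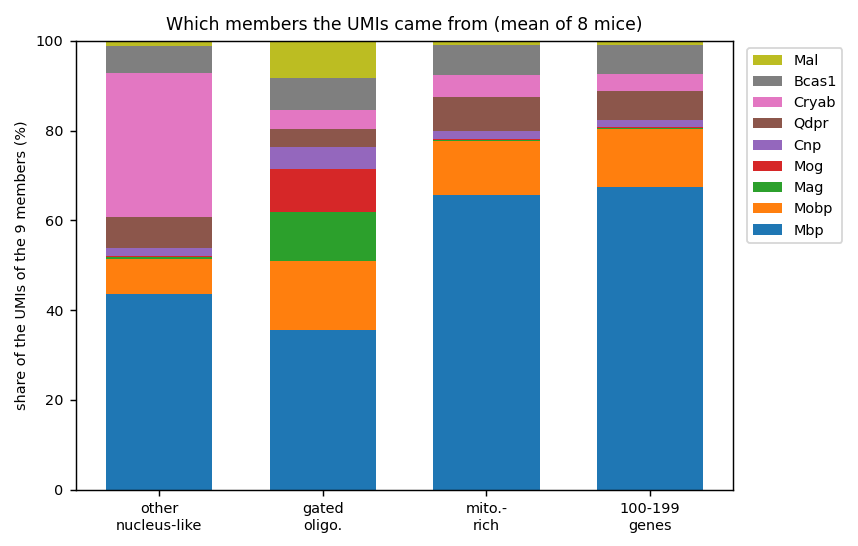
Share (%) of the UMIs of the 9 genes that each gene contributed, as the mean of 8 mice, in the 4 populations. Mag took 10.9% and Mog 9.66% in gated nuclei and at most 0.35% each elsewhere, Mbp took 65.5% in mitochondria-rich and 67.5% in low-gene barcodes, and Cryab took 32.1% in other nucleus-like nuclei.

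Low-gene barcodes were examined next, as the place where RNA carried out of oligodendrocyte cell bodies might be met. All 9 genes were higher there than in mitochondria-rich barcodes of the same mouse, against 8.17% of 10793 genes called higher (edgeR, mouse as a block). The median log2 fold change was 0.77 over the 9 genes and 0.00 over all genes, and the count was 9 under every one of the 15 alternatives. Library sizes alone took the share of higher calls over all genes from 54.7% to 34.0%. These are sums over barcodes, which alone do not tell more barcodes with myelin RNA from more such RNA per barcode. Shares of barcodes with a UMI of *Mbp* or *Mag* at equal depth are given below.

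*Mobp* had the largest difference, with 949 to 1558 CPM (median 1259) against 565 to 903 CPM (log2 fold change 0.92, SE 0.06, adjusted p = 2.50e-06, edgeR). *Mag* had 17.8 to 42.3 CPM (median 28.3), higher in 7 of 8 mice (0.89, SE 0.11, adjusted p = 1.35e-09, edgeR). *Mbp* had 5264 to 8874 CPM (median 6395), 1.56-fold to 2.21-fold above the mitochondria-rich barcodes and without overlap between the populations (0.87, SE 0.04, adjusted p = 1.36e-19, edgeR). The fold change of *Mag* thus lay beside those of *Mobp* and *Mbp*. *Mog* had 17.4 to 28.9 CPM (0.81, SE 0.12, adjusted p = 2.49e-07, edgeR), *Bcas1* 462 to 786 CPM (0.77, SE 0.06, adjusted p = 1.96e-07, edgeR) and *Mal* 70.7 to 114 CPM (0.68, SE 0.11, adjusted p = 0.00244, edgeR). *Qdpr* rose by 0.64 (SE 0.04), *Cryab* by 0.43 (SE 0.04) and *Cnp* by 0.40 (SE 0.05), the least of the 9.

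The proportions among the 9 genes were close in these populations. *Mbp* gave 67.5% of their UMIs in low-gene barcodes, 1.96 points (SD 1.40) above the mitochondria-rich barcodes in 7 of 8 mice (exact sign-flip permutation test, p = 0.0156). *Mag* gave 0.31% and *Mog* 0.23%. After thinning each barcode to 150 non-mitochondrial UMIs, 57.3% of low-gene barcodes held an *Mbp* UMI (95% exact interval 57.1% to 57.6%), against 41.0% of mitochondria-rich barcodes and 37.2% of gated nuclei. Before thinning the shares were 62.4%, 78.8% and 99.1%. Thinning left out 46621 shallow barcodes, all of them low-gene barcodes. For *Mag* the thinned shares were 0.430%, 0.311% and 14.9%. Astrocyte nuclei (with *Gpc5* and *Luzp2*, 1050 in all), which should lack myelin transcripts, held *Mbp* in 6.29% and *Mog* in 0.0952% of nuclei after thinning. Per mouse the thinned share with *Mbp* was 45.4% to 63.2% in low-gene barcodes and 26.8% to 60.0% in gated nuclei, so the populations overlapped. The low-gene share was the higher in 7 of 8 mice, by 15.1 percentage points on average (SD 12.6; exact two-sided sign-flip permutation test, p = 0.0234). The thinned share with *Mag* was lower in low-gene barcodes in 8 of 8 mice, with a difference of −16.0 points (SD 4.68; same test, exact p = 0.00781). These intervals cover counting error only.

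Barcodes with the fewest UMIs are the nearest these files come to empty droplets. In the 20000 such barcodes of *Tsc2* wt/wt mouse 3, which had a median of 29 genes and none of which was a low-gene barcode, *Mbp* stood at 11855 CPM, above the 5548 CPM of its low-gene barcodes. In 7 of 8 mice *Mbp* was above its level in the low-gene barcodes of the same mouse, as were *Mobp*, *Mag*, *Mog* and *Cryab*. For *Cnp* this held in 6 of 8, and for *Qdpr*, *Bcas1* and *Mal* in 8 of 8. In *Tsc2* wt/wt mouse 2 and *Tsc2* mut/mut mice 1, 3 and 4 most of these barcodes were themselves low-gene barcodes. The counts of mice thus compare low-gene barcodes partly with themselves. In *Tsc2* wt/wt mice 1, 3 and 4 *Mbp* stood at 10580, 11855 and 9837 CPM, against 6476.5, 5548 and 6314 CPM in low-gene barcodes. In *Tsc2* mut/mut mouse 2, where 2873 of the 20000 were low-gene barcodes, it stood at 12015 CPM against 8874 CPM. Whether the RNA of the 9 genes in low-gene barcodes was free RNA or had been transported was not tested.

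**Figure D3:**
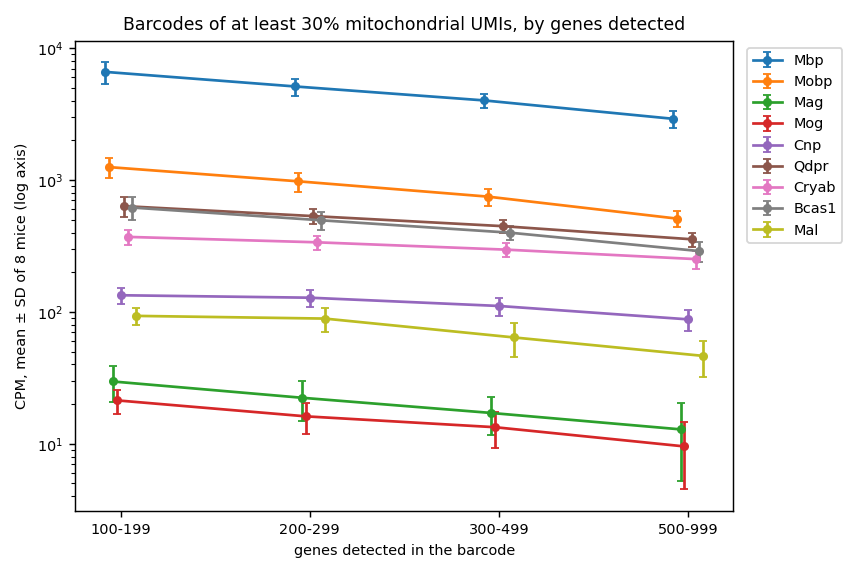
Level of each gene (CPM, log axis; mean ± SD of 8 mice) in barcodes with at least 30% mitochondrial UMIs, by the number of genes detected. Mbp fell from 6614 CPM under 200 genes to 2916 CPM at 500 to 999 genes.

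Levels fell with the number of genes detected. Among barcodes with at least 30% mitochondrial UMIs, *Mbp* had 6614 ± 1236 CPM under 200 genes, 5133 ± 755 at 200 to 299, 4022 ± 511 at 300 to 499 and 2916 ± 417 at 500 to 999 (SD, n = 8). *Mbp*, *Mobp*, *Qdpr* and *Bcas1* fell at every step in 8 of 8 mice, *Mog* and *Cryab* in 7, *Mag* in 6, *Cnp* in 4 and *Mal* in 3. The median fold between the lowest and the highest range was largest for *Mobp*, with 2.46, and smallest for *Cnp* and *Cryab*, both with 1.52. *Mag* and *Mog* rested on 55 and 38 UMIs in the range of 500 to 999 genes. Mitochondrial UMIs stayed between 43.1% and 53.6% across the ranges.

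**Figure D4:**
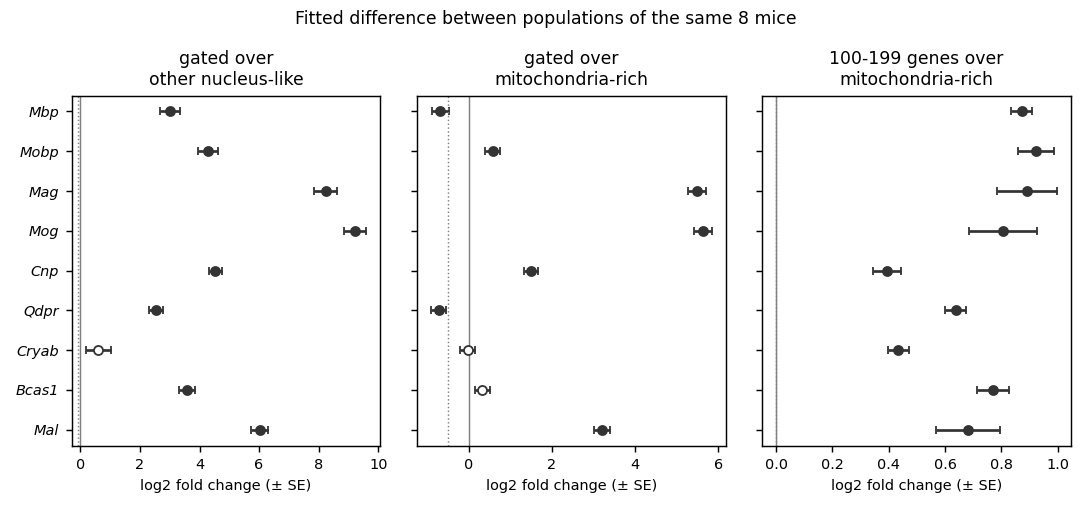
Fitted log2 fold change (± SE) of each gene in 3 comparisons within the same 8 mice. Filled points passed an adjusted p of 0.05, the solid line is 0 and the dotted line the median of all genes. Mag and Mal lay to the right of Mbp, Mobp, Cnp, Qdpr, Cryab and Bcas1 in the comparisons with gated nuclei, as did Mog, and the 9 genes lay between 0.40 and 0.92 in the third.

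Genes that followed the 9 most closely were sought over 32 profiles, 4 populations of 8 mice, by Pearson's r of log2(CPM + 1) with the mean of the 9. These points share libraries and depth, so r is a description. Outside the 9, those named among the closest of 9534 genes were *Stmn4* (0.98), *Ermn* (0.98), *Tubb4a* (0.98), *Desi1* (0.97), *Tmem151a* (0.97), *Gatm* (0.96), *Sept4* (0.96) and *Dbndd2* (0.96). Within the 9, *Cnp* (0.99) and *Mal* (0.97) followed the mean most closely and *Cryab* (0.42) least.

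By genotype the question was whether loss of *Tsc2* went with other levels of these genes. None of the 9 differed between *Tsc2* wt/wt and *Tsc2* mut/mut in gated nuclei, against 0% of 3176 genes (edgeR, adjusted p under 0.05). At an unadjusted p under 0.05 there was 1, against 8.91% of all genes, and DESeq2 also called none of the 9. In mitochondria-rich barcodes 0 of 9 differed, against 0.348% of 10065 genes, with 0 at an unadjusted p under 0.05 (12.6% of all genes). In low-gene barcodes 0 of 9 differed, against 0.228% of 11846 genes, with 1 at an unadjusted p under 0.05 (7.7% of all genes). DESeq2 called none of the 9 in either. An interaction of genotype with population (gated nuclei against mitochondria-rich barcodes) was called for 0 of 9 genes, against 0.241% of 9546 genes, with 0 at an unadjusted p under 0.05 (9.6% of all genes) and 0 by DESeq2. Single mice moved the calls over all genes. With a mouse left out there were 0 to 109 in gated nuclei (109 without *Tsc2* wt/wt mouse 2 and 7 without *Tsc2* mut/mut mouse 2), 19 to 112 in mitochondria-rich barcodes (19 without *Tsc2* wt/wt mouse 3, 23 without *Tsc2* mut/mut mouse 4 and 112 without *Tsc2* mut/mut mouse 2), 17 to 39 in low-gene barcodes (17 without *Tsc2* wt/wt mouse 1) and 2 to 184 for the interaction (184 without *Tsc2* wt/wt mouse 2, 44 and 40 without *Tsc2* mut/mut mice 2 and 4, and 2 to 7 without any of the other 5). In each of these fits 0 of the 9 genes were called. The median log2 fold change of the 9 was −0.03 in gated nuclei, 0.04 in mitochondria-rich barcodes and −0.10 in low-gene barcodes. The corresponding medians of all genes were 0.00, 0.01 and −0.01.

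*Bcas1* was the gene at an unadjusted p under 0.05 in gated nuclei. It had 815, 748, 825 and 574 CPM in *Tsc2* wt/wt mice 1 to 4 and 503, 538, 534 and 530 CPM in *Tsc2* mut/mut mice 1 to 4. All 4 *Tsc2* mut/mut mice were lower and the genotypes did not overlap (log2 fold change −0.53, SE 0.19, adjusted p = 0.340, edgeR). An exact permutation test of the CPM gave p = 0.0286, the smallest that 4 mice against 4 can give. The 14 long nuclear genes had a median of −0.43 in the same comparison, with 0 called and 11 at an unadjusted p under 0.05 (edgeR). Of the gate genes *Prr5l* was at −0.58 (SE 0.14, adjusted p = 0.108) and *St18* at −0.21 (SE 0.13, adjusted p = 0.670, edgeR). Every gated nucleus had to hold both, so their levels there are set in part by the gate. Markers of other cell types were also summed in these gated nuclei. All 9 neuron markers were detected and summed to 210 to 501 CPM over *Tsc2* wt/wt mice, against 629 to 974 CPM over the *Tsc2* mut/mut mice, without overlap. The 10 astrocyte or NSC markers summed to 1223 to 5138 CPM and 2966 to 7400 CPM, with overlap. The 5 choroid plexus markers, also all detected, summed to 0 to 8.59 CPM and 9.11 to 117 CPM, and the gap was near the floor. In mouse 2 of each genotype 3 UMIs would be 8.59 CPM (*Tsc2* wt/wt) and 27.3 CPM (*Tsc2* mut/mut). Oligodendrocyte progenitor markers summed to 239 to 728 CPM and 159 to 556 CPM, with overlap. Microglia, ependymal and endothelial markers also overlapped between the genotypes. The part of RNA of other cell types and of nuclear RNA content in the level of *Bcas1*, and in the other genotype differences in gated nuclei, was not tested. Over 18 alternatives the fold change ran from −0.63 to −0.37 and the adjusted p from 0.285 to 0.744. In mitochondria-rich barcodes (−0.02, SE 0.11) and low-gene barcodes (−0.10, SE 0.18) *Bcas1* overlapped between the genotypes.

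*Cryab* was the gene at an unadjusted p under 0.05 in low-gene barcodes. It had 397, 448, 408 and 389 CPM in *Tsc2* wt/wt mice 1 to 4 and 362, 328, 353 and 294 CPM in *Tsc2* mut/mut mice 1 to 4. Again the genotypes did not overlap (log2 fold change −0.25, SE 0.10, adjusted p = 0.543, edgeR; exact permutation test p = 0.0286). *Cryab* also had lower means in *Tsc2* mut/mut in gated nuclei (−0.54, SE 0.29, adjusted p = 0.615) and mitochondria-rich barcodes (−0.18, SE 0.10, adjusted p = 0.468, edgeR), with overlap in both. Depth also differed. Libraries held 11182335 to 33345765 UMIs in *Tsc2* wt/wt and 21908321 to 36773832 in *Tsc2* mut/mut. Low-gene barcodes had medians of 141, 194, 146 and 142 non-mitochondrial UMIs in *Tsc2* wt/wt mice 1 to 4. In *Tsc2* mut/mut mice 1 to 4 these were 193, 147, 216 and 193. The part of depth in the genotype differences of low-gene barcodes was not tested. By CPM 1 of the 9 genes did not overlap between the genotypes in gated nuclei, 0 in mitochondria-rich barcodes and 1 in low-gene barcodes, against 5.42%, 6.9% and 5.9% of all genes tested.

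*Mbp* had 2811, 3219, 2959 and 2529 CPM in gated nuclei of *Tsc2* wt/wt mice 1 to 4, and 2658, 4356, 2806 and 4555 CPM in *Tsc2* mut/mut mice 1 to 4. Mice 2 and 4 of *Tsc2* mut/mut were above all others and mice 1 and 3 were among *Tsc2* wt/wt (log2 fold change 0.21, SE 0.16, adjusted p = 0.782, edgeR). In these same mice 2 and 4 *Cnp* had 738 and 900 CPM, against 289 to 556 CPM in the other 6, and *Mal* 1294 and 1059 CPM, against 506 to 1163 CPM. Much of this lay in few nuclei. In mouse 4 the gated nucleus with the most UMIs of the gene held 15 of 17 for *Cnp* and 11 of 20 for *Mal*. In mouse 2 it held 17 of 81 and 36 of 142. Such nuclei were not confined to these mice, since in *Tsc2* mut/mut mouse 1 it held 16 of 94 for *Cnp*. The gated nuclei of mice 2 and 4 had the most mitochondrial UMIs, 15.1% and 15.2%, against 6.43% to 12.2% in the others, and mouse 4 rested on 12 nuclei and 86 UMIs of *Mbp*. The part of mitochondrial UMIs, of the low numbers and of such nuclei in these levels was not tested. *Mbp* fold changes were −0.01 (SE 0.11) in mitochondria-rich barcodes and 0.13 (SE 0.18) in low-gene barcodes.

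**Figure D5:**
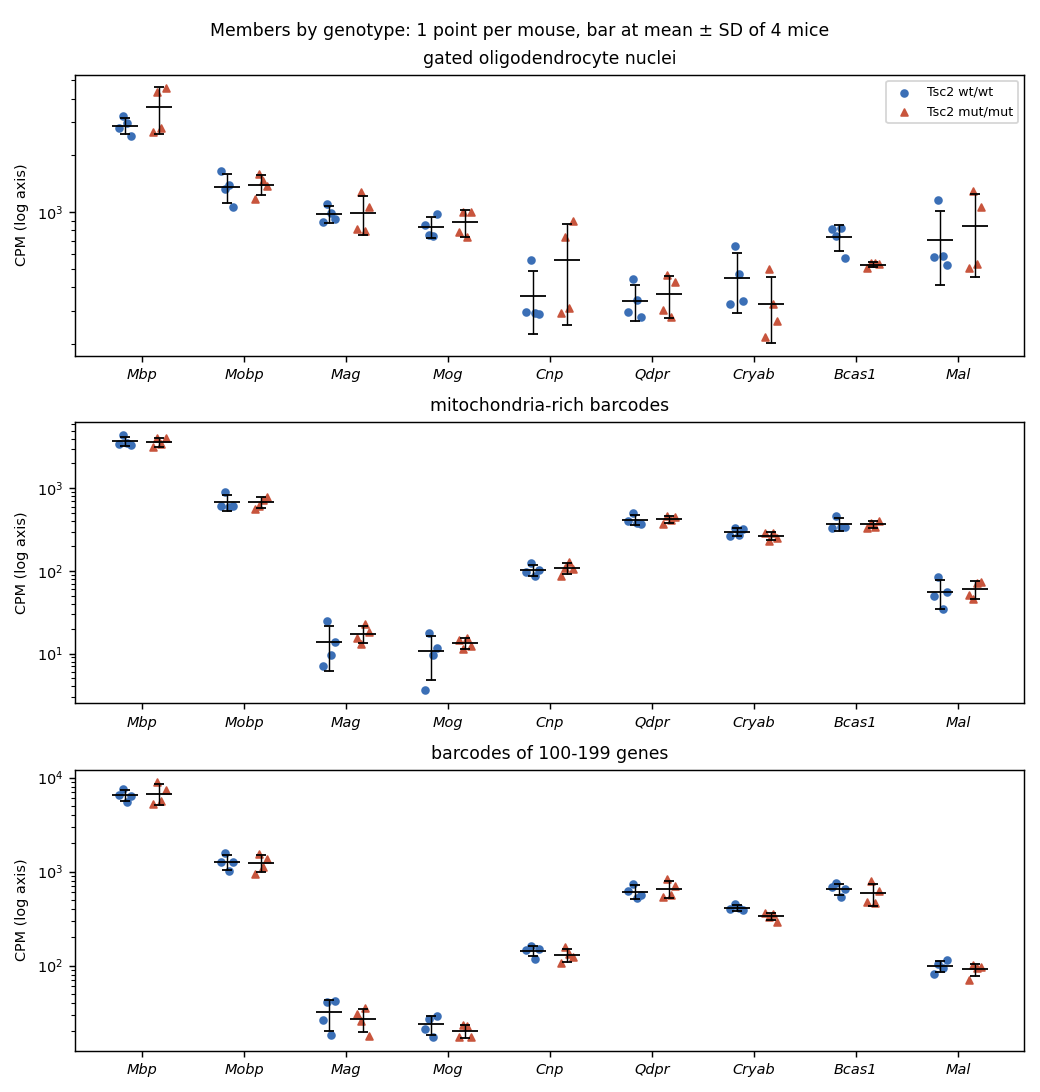
Level of each gene (CPM, log axis) by genotype in 3 populations, with 1 point per mouse and the bar at the mean ± SD of 4 mice. Points of the genotypes overlapped except for Bcas1 in gated nuclei and Cryab in low-gene barcodes.

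Of the related genes only *Ptgds*, the prostaglandin D synthase, passed in any comparison of genotypes, and only in low-gene barcodes (log2 fold change 0.81, SE 0.14, adjusted p = 0.00669, edgeR). *Ptgds* is also made by choroid plexus and meninges, and choroid plexus markers summed to 24.1 to 495 CPM over *Tsc2* wt/wt mice, against 146 to 1250 CPM over *Tsc2* mut/mut mice, in these barcodes. The part of choroid plexus RNA and of the depth given above in the result was not tested. *Ptgds* was not recomputed under the alternatives.

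Gated nuclei made up 1.56%, 1.79%, 1.14% and 2.29% of barcodes with at least 300 genes in *Tsc2* wt/wt mice 1 to 4, and 2.14%, 1.68%, 2.09% and 0.287% in *Tsc2* mut/mut mice 1 to 4. Mouse 4 of *Tsc2* mut/mut was below all others and the remaining values overlapped. Means were 1.70% ± 0.48 and 1.55% ± 0.86 (SD, n = 4; exact two-sided permutation test over 70 assignments, p = 0.8). Without *Tsc2* mut/mut mouse 4 the difference changed sign, from −0.15 to 0.27 percentage points (exact permutation test, p = 0.457). The denominator is mostly mitochondria-rich barcodes, so this is a share of barcodes and not of cells.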

How the data were processed

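Single nuclei from the V-SVZ of 8 mice were profiled by the authors with 10x Genomics 3′ libraries and Cell Ranger 7.0.1 (file header) on GRCm38/mm10, set to 60000 barcodes per library. The deposited values are raw UMI counts per gene and barcode, without normalization. Seurat 4 is named in the submitters' notes. Whether introns were counted, and whether these mice were electroporated or given tamoxifen, is not given in the sources used here. Nothing says that replicates were processed on separate days, and mice are the replicates.

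UMIs were summed per mouse and population. Populations of the same mice were compared with edgeR 4.0.16 in R 4.3.3 (TMM, filterByExpr, robust quasi-likelihood F-test with the mouse as a block, Benjamini-Hochberg adjustment over all non-mitochondrial genes tested, threshold 0.05), and genotypes without a block. *St18* and *Prr5l* were left out of counts. A gene, with a comparison built on it, is not reported here. Exact permutation tests used numpy 2.4.6, and the exact intervals of the thinned shares used scipy 1.17.1. The fits were tested on simulated data. DESeq2 1.42.0, other thresholds and omission of each mouse were alternatives. Precision is limited by the number of mice and by 22258 to 526471 UMIs in the gated nuclei of a mouse.

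The 9 genes, the gate and the lists were chosen with earlier results of these data known. All 9 genes are named in every comparison of populations. Of each other list the 3 genes with the largest called change between gated and other nucleus-like nuclei are named, and any called between genotypes. *Tcf7l2* and *Pcdh15* were named after their values were seen. No doublet caller was run, and leaving out the 5% of barcodes with the most UMIs served in its place. Promoters came from RefSeq (GRCm38.p6) and coordinates from GENCODE M21.

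Same-numbered mice of the genotypes did not deviate together (correlations of their deviations between −0.15 and −0.03 over 3 populations), so the numbers do not pair them.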

Additional observations from a re-analysis of the deposited data

Results flagged for a closer look

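In 4 of 56 groups of 4 mice the highest mouse stood apart by Dixon's ratio at the 95% level, where chance flags about 1 in 20. All 4 were *Tsc2* wt/wt mouse 2. In gated nuclei *Cnp* had 556 CPM in this mouse against 289 to 295 CPM in the other 3, and *Mal* 1163 CPM against 526 to 582 CPM. The gated nucleus of this mouse with the most UMIs of the gene held 40 of 194 for *Cnp* (median 0) and 93 of 406 for *Mal* (median 1). In the other 3 mice the most in a gated nucleus was 3 to 7 UMIs of *Cnp* and 4 to 13 of *Mal*. In mitochondria-rich barcodes *Mobp* had 903 CPM against 588 to 616 CPM, and *Bcas1* 466 CPM against 335 to 342 CPM. This mouse had the most gated nuclei (133) and mitochondria-rich barcodes (6681) of the *Tsc2* wt/wt mice, and its gated nuclei the highest share of mitochondrial UMIs of the 4, 9.96% against 6.43% to 8.07%. The part of single nuclei, of these numbers and of the mitochondrial share in the levels was not tested.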

How the results depend on the processing

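Of the counts and the share that answer a comparison, 66 values under alternatives that kept all mice and 62 with a mouse left out were taken as the same. A count was taken so within a set ratio of the main count, and the share if its difference kept its sign. The 4 that were not follow. The number of the 9 genes higher in gated nuclei than in mitochondria-rich barcodes was 5 in the main fit. It was 3 with DESeq2, where the median of all genes moved to −1.65. The other alternatives with all mice gave 4 to 7, and those with a mouse left out 4 to 5, all taken as the same. The difference in the share of gated nuclei was 1.57 points with at least 500 genes, and −0.35 to 0.27 with a mouse left out, positive without *Tsc2* wt/wt mouse 4 (0.0494) or *Tsc2* mut/mut mouse 4 (0.270). The cause of these changes was not tested unless given.

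Between gated nuclei and mitochondria-rich barcodes, *Cryab* changed sign with library sizes alone (0.41) and at least 500 genes (0.38), *Mobp* without the filter on low counts (−0.031), with DESeq2 (−0.53) and without shared barcodes (−0.035), and *Bcas1* without the filter (−0.26), with DESeq2 (−0.78), with gated nuclei under 20% mitochondrial UMIs (−0.16), with mitochondria-rich barcodes from 40% (−0.21) and without shared barcodes (−0.25). With a mouse left out *Cryab* ran from −0.59 to 0.11, *Mobp* from −0.030 to 0.64 and *Bcas1* from −0.28 to 0.38. The median of all genes ran from −1.02 to −0.47 in the same fits. By genotype the small differences also changed sign. In mitochondria-rich barcodes *Bcas1* was 0.0015 without shared barcodes, and with a mouse left out *Bcas1* ran from −0.10 to 0.12 and *Mbp* from −0.10 to 0.083. In low-gene barcodes *Bcas1* ran from −0.26 to 0.022 and *Mbp* from −0.021 to 0.25. No other sign changed among the values recomputed, which by genotype were those of *Mbp*, *Cryab* and *Bcas1*.

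With the replicate number as a block, 0 of the 9 genes differed by genotype in any of the 3 populations. Over all genes the block gave 0, 21 and 35 calls against 0, 35 and 27 without it. The numbers did not pair the mice. The alternatives without shared barcodes and without choroid plexus-gated nuclei were chosen after seeing the data. Depth limits *Mag* and *Mog* outside gated nuclei and every level in the gated nuclei of *Tsc2* mut/mut mouse 4.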

Other observations

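Within the set of myelin and maturation genes, those scarce outside gated nuclei were not the long ones. *Mag*, *Mog* and *Mal* span 15698, 12656 and 23470 bp (GENCODE M21), whereas *Mbp* and *Bcas1* span 110492 and 80855 bp. Nor were all short ones scarce. *Qdpr*, *Cnp* and *Cryab* span 16216, 16826 and 5312 bp and had 368 to 497, 86.9 to 128 and 232 to 332 CPM in mitochondria-rich barcodes. *Mobp*, with 31778 bp, had 565 to 903 CPM there. Outside this set all 14 long nuclear oligodendrocyte genes were higher in gated nuclei than in mitochondria-rich barcodes (edgeR). Their median log2 fold change was 6.55, against 5.48 for *Mag* and 5.63 for *Mog*. The part of gene length in these levels was not tested. Of the other sheath genes, *Sirt2*, a deacetylase of myelin, resembled *Mbp* and *Qdpr* in the comparison of gated nuclei with mitochondria-rich barcodes (log2 fold change −0.72, SE 0.18, adjusted p = 1.18e-04, edgeR). The median of all genes there was −0.49. *Sirt2* was not recomputed under the alternatives, so whether its call depends on the scale, as those of *Mbp* and *Qdpr* did, was not tested. Over the 32 profiles the gene closest to *Mbp* was *Qdpr* (r = 0.99), and the closest to *Mag* was *Mog* (r = 0.99). *Sirt2* and these pairs were picked after their values were seen.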
